A study of Mus musculus with 12 samples.

Results

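Expression of 9 genes of the ITAM pathway was examined in preosteoclasts from LSD1WT and LSD1cKO mice. ITAM stands for immunoreceptor tyrosine-based activation motif. The genes were chosen by name for what their products do, with no measured value in the rule. They are the adaptors Tyrobp (DAP12) and Fcer1g (FcRγ), the receptors Oscar, Trem2, Siglec15, Clec5a and Pirb, the kinase Syk and the phospholipase Plcg2. All 9 were found among the 57010 genes listed, and all 9 were among the 15425 genes that passed the filter on low counts.

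Osteoclasts form from myeloid precursors under M-CSF and RANKL, and RANK signalling alone is not sufficient. A costimulatory signal comes from short transmembrane adaptors that carry an ITAM and pair with receptors that have no signalling tail of their own. Once its tyrosines are phosphorylated by Src family kinases, the ITAM recruits Syk, which activates PLCγ2 and releases calcium. Calcium activates calcineurin and the transcription factor NFATc1, which drives osteoclast genes. TREM2, Siglec-15 and CLEC5A (MDL-1) pair with DAP12, and OSCAR, a collagen receptor, pairs with FcRγ. PIR-B differs from these receptors because it carries inhibitory motifs (ITIMs) and recruits the phosphatases SHP-1 and SHP-2. In macrophages the same adaptors serve Fc receptors and many C-type lectins.

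The 12 libraries formed 6 groups of 2, and they came from female mice that were 2 months old at ligature placement (3 months old in the sequencing methods). In LSD1cKO mice floxed Lsd1 (Kdm1a) was deleted by LysM-Cre, which is active in myeloid cells such as macrophages and neutrophils, and LSD1WT mice were the controls; the alleles carried by these controls are not given in the sources used here. Bone marrow was taken from the mandible of ligated mice, which carried silk ligatures on the maxillary second molars of both sides for 7 days, or from the femur of ligated or unligated mice, and by the labels all cultures received M-CSF and RANKL for 2 days. No mandible library of an unligated mouse was analysed here, and 3 of the 9 mice (1 LSD1WT and 2 LSD1cKO) were sampled at both sites.

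Total counts ran from 21375805 to 32526751 per library, and levels are given as CPM, the count divided by the TMM-scaled total and expressed per 1e+06 reads. Kdm1a was between 61.2 and 71.3 CPM in LSD1WT and between 15.6 and 24.3 CPM in LSD1cKO libraries, without overlap. The preosteoclast label was checked against 13 osteoclast markers, which were all detected in all 12 libraries. Their summed level was between 13359 and 43514 CPM in 10 libraries, but only 931 CPM in femur ligated LSD1WT replicate 2 and 888 CPM in femur unligated LSD1WT replicate 2. These libraries also had the highest summed levels of 12 macrophage markers, at 49584 and 24946 CPM, against 2884 to 11001 CPM in the other 10. The labels give these libraries the same treatment as the others, and whether RANKL acted alike in them was not tested. The values below are therefore given with and without them. They were singled out by osteoclast transcripts, which run with Oscar and Siglec15 across the libraries and against Trem2 and Fcer1g, so the values of these 4 genes without them are partly set by that choice. The 2 mandible LSD1WT libraries were nearly identical (biological coefficient of variation 0.0246), and the one numbered 3 has a library name that calls it femur. It was taken as mandible by its title. With these 2 summed to 1 library, edgeR still called Clec5a and Pirb over the 3 cultures. Other marker sums reached at most 18.0 CPM for T and NK cells and 3.54 CPM for erythroid cells.

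The promoters of 4 receptors are shown because these genes give the patterns described below. Clec5a and Pirb were higher in LSD1cKO, while Oscar and Trem2 ran in opposite directions across the libraries. Each sequence holds the 250 bases before the RefSeq start site (build GRCm38.p6), read 5′ to 3′ towards the gene. Clec5a lies at chr6:40585806-40586055 (minus strand), Pirb at chr7:3720383-3720632 (minus strand), Oscar at chr7:3616158-3616407 (minus strand) and Trem2 at chr17:48346151-48346400 (plus strand). Capitals mark matches, on either strand, to GAGGAA (the core bound by PU.1, the myeloid ETS factor), TGGAAA (the NFAT core) and CATGTG (an E-box bound by MITF).
Clec5a: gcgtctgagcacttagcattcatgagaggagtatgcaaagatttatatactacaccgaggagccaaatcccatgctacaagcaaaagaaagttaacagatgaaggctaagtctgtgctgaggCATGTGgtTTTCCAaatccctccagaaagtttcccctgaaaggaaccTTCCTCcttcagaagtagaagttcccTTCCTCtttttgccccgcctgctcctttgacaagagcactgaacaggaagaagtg
Pirb: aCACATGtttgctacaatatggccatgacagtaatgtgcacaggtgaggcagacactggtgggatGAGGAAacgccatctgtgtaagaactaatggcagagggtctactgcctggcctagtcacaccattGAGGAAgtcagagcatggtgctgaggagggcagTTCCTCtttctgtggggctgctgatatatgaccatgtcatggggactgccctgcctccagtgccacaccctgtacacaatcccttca
Oscar: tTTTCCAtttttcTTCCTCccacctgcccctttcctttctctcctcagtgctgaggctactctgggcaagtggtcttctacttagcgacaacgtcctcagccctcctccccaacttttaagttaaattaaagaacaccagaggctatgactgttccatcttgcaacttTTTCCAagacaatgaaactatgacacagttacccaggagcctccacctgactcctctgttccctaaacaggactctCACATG
Trem2: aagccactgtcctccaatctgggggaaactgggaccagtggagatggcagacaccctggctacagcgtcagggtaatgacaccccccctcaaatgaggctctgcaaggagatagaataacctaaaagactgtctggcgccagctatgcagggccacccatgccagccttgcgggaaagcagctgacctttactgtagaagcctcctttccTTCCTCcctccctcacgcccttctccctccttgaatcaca
GAGGAA was present in 23.3% of 32851 promoters of this length, TGGAAA in 18.6% and CATGTG in 12.3%, so single matches are common. Clec5a held all 3 motifs, with GAGGAA at 81 and 55 bases, CATGTG at 128 bases and TGGAAA at 120 bases before the start. Oscar also held all 3, with CATGTG 6 bases before the start and TGGAAA at 249 and 82 bases. Pirb held GAGGAA at 3 places and CATGTG, and Trem2 held GAGGAA alone. None of these 4 held the interferon response element, taken as GAAA repeated after a gap of 2 bases, which 2.98% of promoters held. The matches describe the sequence only. Of the 9 genes, 7 had a promoter entry in the RefSeq table. No match to these motifs was found for Fcer1g or Plcg2, and the second of the Syk promoters held GAGGAA.

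The adaptors were the most abundant of the 9 genes. Per kilobase of transcript, Tyrobp was the highest in all 12 libraries, with a median of 1108 CPM per kb (766 to 1836). Fcer1g was the second in all 12, with a median of 438 CPM per kb (222 to 1251). The same order was found when levels were divided by the length of all exons joined. The other medians lay between 15.1 CPM per kb for Siglec15 and 120 CPM per kb for Trem2. Their order depended on the length used, since the median of Trem2 fell to 26.4 CPM per kb of joined exons.

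**Figure D1:**
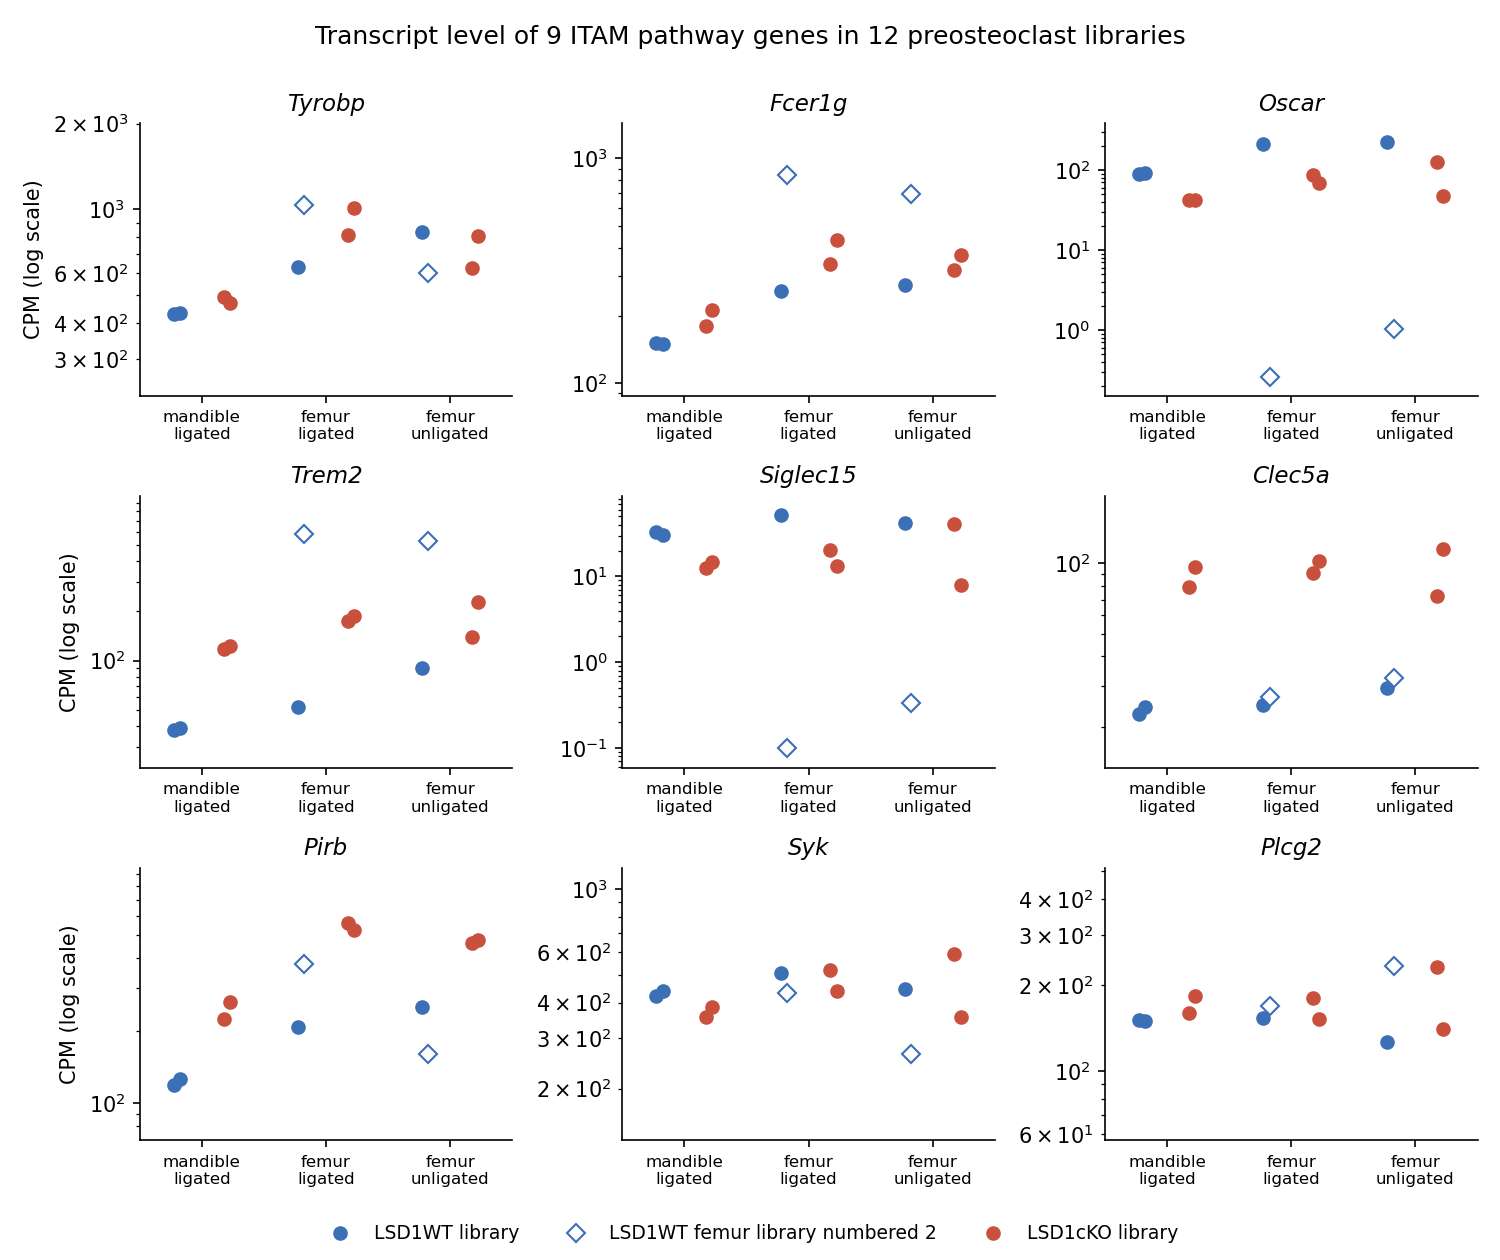
CPM (log scale) of each of the 9 genes in the 12 libraries, by culture, with LSD1WT in blue and LSD1cKO in red. Each point is 1 library, open diamonds are the femur LSD1WT libraries numbered 2, and the Siglec15 count of 0 is drawn at 0.1 CPM. The Clec5a points of LSD1cKO (72.7 to 115 CPM) all lie above those of LSD1WT (22.7 to 32.3 CPM), and the open diamonds lie lowest for Oscar and Siglec15 and highest for Trem2 and Fcer1g.

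The genotypes were first compared over the 3 cultures, with 6 libraries each, from 5 LSD1WT and 4 LSD1cKO mice. This fit had no mouse term, so 2 libraries of the same mouse counted as separate. Clec5a and Pirb were upregulated in LSD1cKO preosteoclasts, and the other 7 genes did not pass the test. Thus 2 of 9 were called higher and 0 lower, where 3.00% of all 15425 genes were called higher and 0.532% lower (edgeR quasi-likelihood test, adjusted p under 0.05). The median log2 difference of the 9 genes was 0.08, against -0.065 over all genes. With the mouse as a random effect, limma voom gave 1.76 for Clec5a (adjusted p = 0.000326) and 1.04 for Pirb (adjusted p = 0.0213).

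Clec5a encodes a C-type lectin that signals through DAP12 and is known for its role in dengue and in joint inflammation. Mandible LSD1WT had 22.7 and 24.4 CPM, and mandible LSD1cKO had 78.8 and 96.8 CPM. In ligated femur the LSD1WT values were 24.8 and 26.9 CPM and the LSD1cKO values 90.5 and 102 CPM. In unligated femur they were 29.3 and 32.3 CPM against 72.7 and 115 CPM. All 6 LSD1cKO libraries were above all 6 LSD1WT libraries, a separation in this direction seen in 1.98% of genes. Clec5a was 3.48-fold higher over the 3 cultures (log2 difference 1.80 ± 0.13, SE; adjusted p = 0.000106). The femur LSD1WT libraries numbered 2 (26.9 and 32.3 CPM) lay within or just above the range of the other LSD1WT libraries, and without them the difference was 1.89 ± 0.14 (adjusted p = 1.75e-05). Clec5a is among the genes the study chose for a heat map of these mandible libraries, so its mandible direction is not independent evidence. The gene is also known from neutrophils and dendritic cells. Over 12 neutrophil markers the summed level was 131 to 475 CPM in LSD1WT and 151 to 369 CPM in LSD1cKO. Over 10 dendritic cell markers it was 53.3 to 374 CPM in LSD1WT and 70.3 to 341 CPM in LSD1cKO, and it was higher in LSD1cKO in the mandible (70.3 and 96.3 against 53.3 and 53.8 CPM). The sum of 10 mast cell and basophil markers was low but higher in all 6 LSD1cKO libraries (6.34 to 10.4 CPM, with 4 to 7 markers at 0) than in all 6 LSD1WT libraries (1.08 to 5.36 CPM, with 4 to 7 markers at 0). The part of these cells in the Clec5a and Pirb values was not tested.

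Pirb encodes the inhibitory receptor of the set and was higher in LSD1cKO in each culture. The mandible values were 119 and 126 CPM (LSD1WT) and 223 and 262 CPM (LSD1cKO). Ligated femur had 207 and 379 CPM against 559 and 523 CPM, and unligated femur 250 and 160 CPM against 463 and 476 CPM. The genotypes did not overlap within any culture, a separation in this direction that 34.1% of genes showed in the mandible, 14.8% in ligated femur and 9.82% in unligated femur, but the mandible LSD1cKO values lay within the range of femur LSD1WT. Over the 3 cultures Pirb was 2.03-fold higher (1.02 ± 0.17 on the log2 scale; adjusted p = 0.00896), and the difference was 1.11 ± 0.12 without the femur LSD1WT libraries numbered 2 (adjusted p = 0.000104). Of all genes, 5.17% were higher without overlap in each of the 3 cultures, as Clec5a and Pirb were. Pirb has near-identical relatives in the Pira genes, so its reads may be divided among them and its level is uncertain.

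Within single cultures, edgeR called 0 of the 9 genes (0% of all genes called in the mandible, 0.00648% in ligated and 0% in unligated femur). An unadjusted p under 0.05 was reached by 2 of 9, Clec5a and Pirb, in each culture, where 3.81% of genes reached it in the higher direction in the mandible, 3.91% in ligated femur and 3.61% in unligated femur. The adjusted p of Clec5a was 0.0769 in the mandible, 0.0612 in ligated femur and 0.182 in unligated femur, with log2 differences of 1.90, 1.90 and 1.60. DESeq2 called Clec5a alone in each culture, where 0.914% (mandible), 1.26% (ligated femur) and 0.752% (unligated femur) of genes were called higher, and limma voom called none. Without the femur LSD1WT libraries numbered 2, edgeR called Clec5a, Pirb and Trem2 in the mandible and in ligated femur, and Clec5a and Pirb in unligated femur, against 5.13%, 6.89% and 2.14% of genes called higher. With the 4 mandible libraries fitted alone 7 of 9 were called, 4 higher (Trem2, Clec5a, Pirb and Fcer1g) and 3 lower (Oscar, Siglec15 and Syk), against 19.2% of genes higher and 18.6% lower. In that fit the spread comes from these 4 libraries, 2 of which are the near-identical LSD1WT pair. The genotype effect on Clec5a differed by -0.00 ± 0.34 (log2) between mandible and ligated femur (adjusted p = 1) and by 0.30 ± 0.34 between ligated and unligated femur (adjusted p = 1). For Pirb these differences were 0.10 ± 0.45 and -0.31 ± 0.45. edgeR called 0 of 9 genes in both tests of a differing genotype effect, and 0 of 9 had an unadjusted p under 0.05 (0.966% and 0.344% of all genes).

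**Figure D2:**
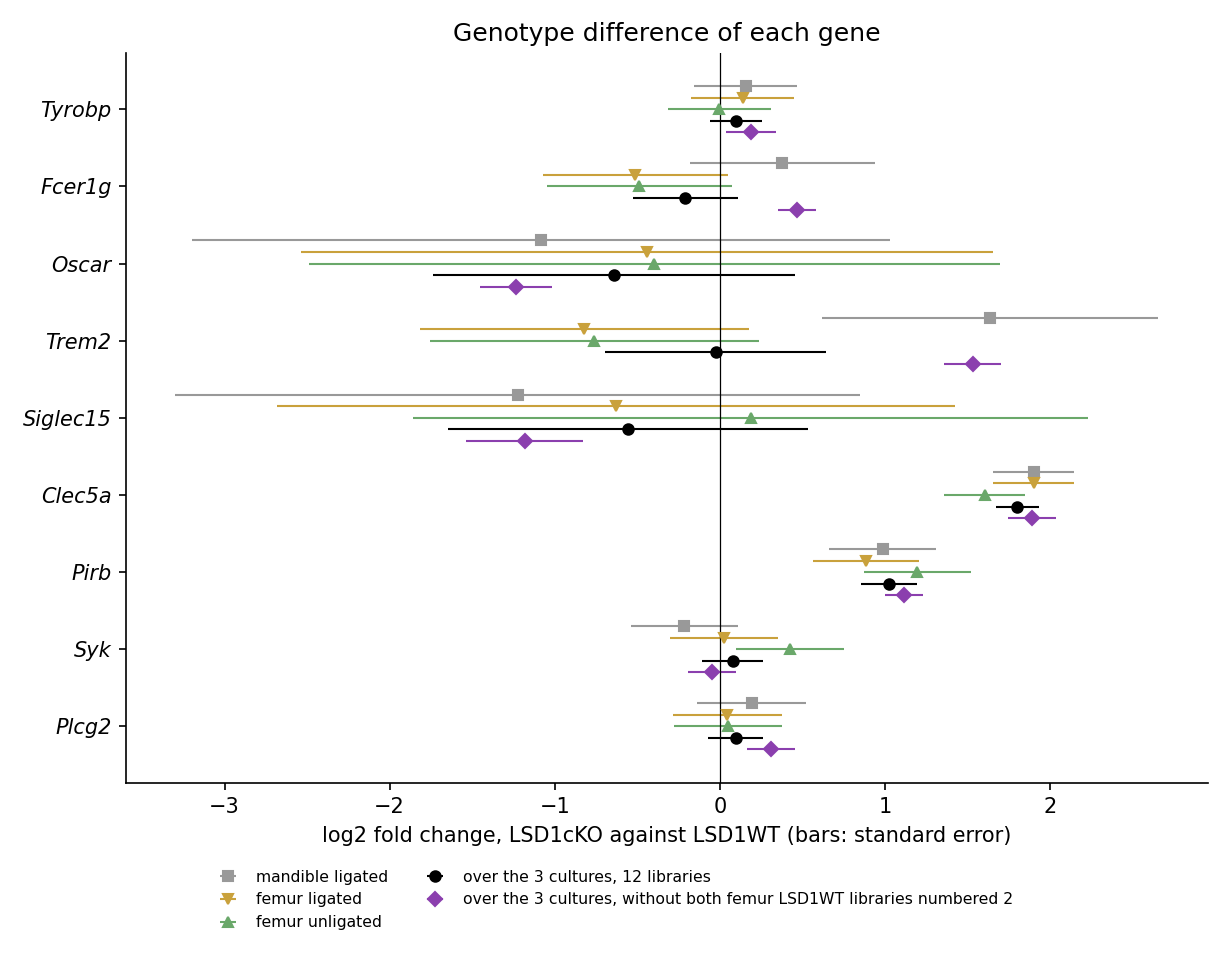
Log2 fold change of LSD1cKO against LSD1WT (x axis) for each gene, with standard errors as bars. Grey, gold and green points are the single cultures, black points all 3 cultures with 12 libraries, and purple diamonds all 3 cultures without both femur LSD1WT libraries numbered 2. Clec5a and Pirb lie to the right under every fit shown, and Trem2 moves from -0.03 to 1.53 when these libraries are left out.

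Trem2, a lipid-sensing receptor of macrophages and osteoclast precursors, depended on the libraries that stood apart. In the mandible, LSD1WT had 38.2 and 39.0 CPM and LSD1cKO 118 and 122 CPM. In femur the LSD1WT libraries numbered 1 had 52.1 CPM (ligated) and 90.3 CPM (unligated), while those numbered 2 had 585 and 527 CPM. The femur LSD1cKO libraries lay between them, at 174 and 187 CPM (ligated) and at 139 and 225 CPM (unligated). The genotypes did not overlap in the mandible but overlapped in both femur cultures. Over the 3 cultures the log2 difference was -0.03 ± 0.67 (adjusted p = 0.993), and it was 1.53 ± 0.17 without the femur LSD1WT libraries numbered 2 (adjusted p = 0.000166).

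Fcer1g, the FcRγ adaptor, followed Trem2. Mandible LSD1WT had 152 and 150 CPM, and mandible LSD1cKO 180 and 211 CPM. Ligated femur had 257 and 843 CPM in LSD1WT and 338 and 433 CPM in LSD1cKO. Unligated femur had 273 and 696 CPM in LSD1WT and 318 and 372 CPM in LSD1cKO. The femur LSD1WT libraries numbered 2 were the highest of the 12. The difference over the 3 cultures was -0.21 ± 0.32 (adjusted p = 0.82), and it was 0.47 ± 0.11 without them (adjusted p = 0.0134).

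Oscar, the receptor that pairs with FcRγ, went the other way. In femur LSD1WT the libraries numbered 1 had 211 CPM (ligated) and 226 CPM (unligated), and those numbered 2 had 0.257 CPM (5 counts) and 1.04 CPM (25 counts). In LSD1cKO it was at 86.8 and 68.5 CPM in ligated and at 125 and 46.8 CPM in unligated femur. Mandible LSD1WT had 88.3 and 91.9 CPM and mandible LSD1cKO 42.5 and 42.6 CPM. LSD1cKO was lower without overlap in the mandible, and the genotypes overlapped in both femur cultures. Over the 3 cultures the log2 difference was -0.64 ± 1.10 (adjusted p = 0.846), and it was -1.23 ± 0.22 without the femur LSD1WT libraries numbered 2 (adjusted p = 0.00264).

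Siglec15, a sialic acid-binding receptor of fusing osteoclasts, ran with Oscar. The femur LSD1WT libraries numbered 2 held 0 counts (ligated), which allows up to 0.154 CPM, and 8 counts (0.331 CPM, unligated). Those numbered 1 had 51.6 and 42.4 CPM. Such limits cover counting error only. Femur LSD1cKO had 20.4 and 13.2 CPM (ligated) and 40.8 and 7.84 CPM (unligated). In the mandible LSD1WT had 33.1 and 30.3 CPM and LSD1cKO 12.6 and 14.6 CPM, without overlap. The difference was -0.56 ± 1.09 over the 3 cultures (adjusted p = 0.867) and -1.18 ± 0.35 without the libraries numbered 2 (adjusted p = 0.0332). In these bulk cultures fewer cells of a type and less RNA per cell cannot be told apart.

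Tyrobp, Syk and Plcg2 varied least of the 9 genes, by highest over lowest CPM. Tyrobp, the DAP12 adaptor, was between 432 and 1036 CPM in LSD1WT (median 613) and between 471 and 1015 CPM in LSD1cKO (median 716). Syk was between 264 and 594 CPM and Plcg2 between 127 and 233 CPM over all 12 libraries. The genotypes overlapped for all 3 genes over the 3 cultures. Their differences were 0.10 ± 0.16, 0.08 ± 0.18 and 0.10 ± 0.17 (log2), with adjusted p of 0.836, 0.893 and 0.852. Without the femur LSD1WT libraries numbered 2 they were 0.19 ± 0.15, -0.05 ± 0.14 and 0.31 ± 0.14, and none passed.

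Without both of these libraries, 6 of the 9 genes were called over the 3 cultures. Clec5a, Pirb, Trem2 and Fcer1g were higher in LSD1cKO, and Oscar and Siglec15 were lower. For Trem2, Fcer1g, Oscar and Siglec15 the call, and the adjusted p given above without these libraries, is partly set by their choice. Those tests cannot decide whether the genotypes differ. In that fit 14.4% of 16008 genes were called higher and 9.75% lower. In the mandible all 9 genes separated the genotypes, 6 higher (Trem2, Clec5a, Pirb, Fcer1g, Tyrobp and Plcg2) and 3 lower (Oscar, Siglec15 and Syk). With 2 libraries a group, 34.1% of genes separated as higher and 34.8% as lower. All 13 osteoclast markers were lower without overlap in mandible LSD1cKO, with a summed level of 16303 and 16355 CPM against 28267 and 28401 CPM, and the part of this in the Oscar and Siglec15 values was not tested. The stromal marker sum was also lower there (5.53 to 10.96 against 43.4 to 44.0 CPM over 10 markers), and its part was not tested.

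The spread of the 9 genes across all 12 libraries was described by Pearson's r of log2 CPM. The points share mice, genotype and culture, and the 2 libraries that stood apart carry much of each value, so no test is given. Oscar and Siglec15 ran together (r = 0.99), as did Fcer1g and Trem2 (r = 0.92), and Oscar ran against Trem2 (r = -0.80). Clec5a and Pirb gave r = 0.73. With the summed osteoclast markers, Oscar gave r = 0.99, Siglec15 0.98, Trem2 -0.83 and Fcer1g -0.78, while Clec5a gave 0.15 and Pirb -0.00. The genes most like Oscar were Denn2b, Mmp9 (itself among the 13 osteoclast markers) and Ephx2 (r of at least 0.996), and those most like Siglec15 were Myo1e, Srd5a1 and Tm4sf19. The genes most like Trem2 included Gm9949 and Fgd2, and Fcer1g was most like Lmo2, Hlx and Lgmn (r of at least 0.986). Clec5a was most like Trim46, AA467197 and Crip1 (r of at least 0.974), and Pirb most like Tmem176b, Clec4a3 and Tmem176a. For Tyrobp the nearest genes were Dram2, Sat1 and Crbn, for Syk Rragd, Kdm5b and Fam53b, and for Plcg2 Flywch1, Hcls1 and Smchd1 (r of at least 0.923). The ratio of Tyrobp to Fcer1g per transcript length had a median of 2.84 over the libraries and ranged from 1.03 to 3.67. The lowest ratio was in femur unligated LSD1WT replicate 2.

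**Figure D3:**
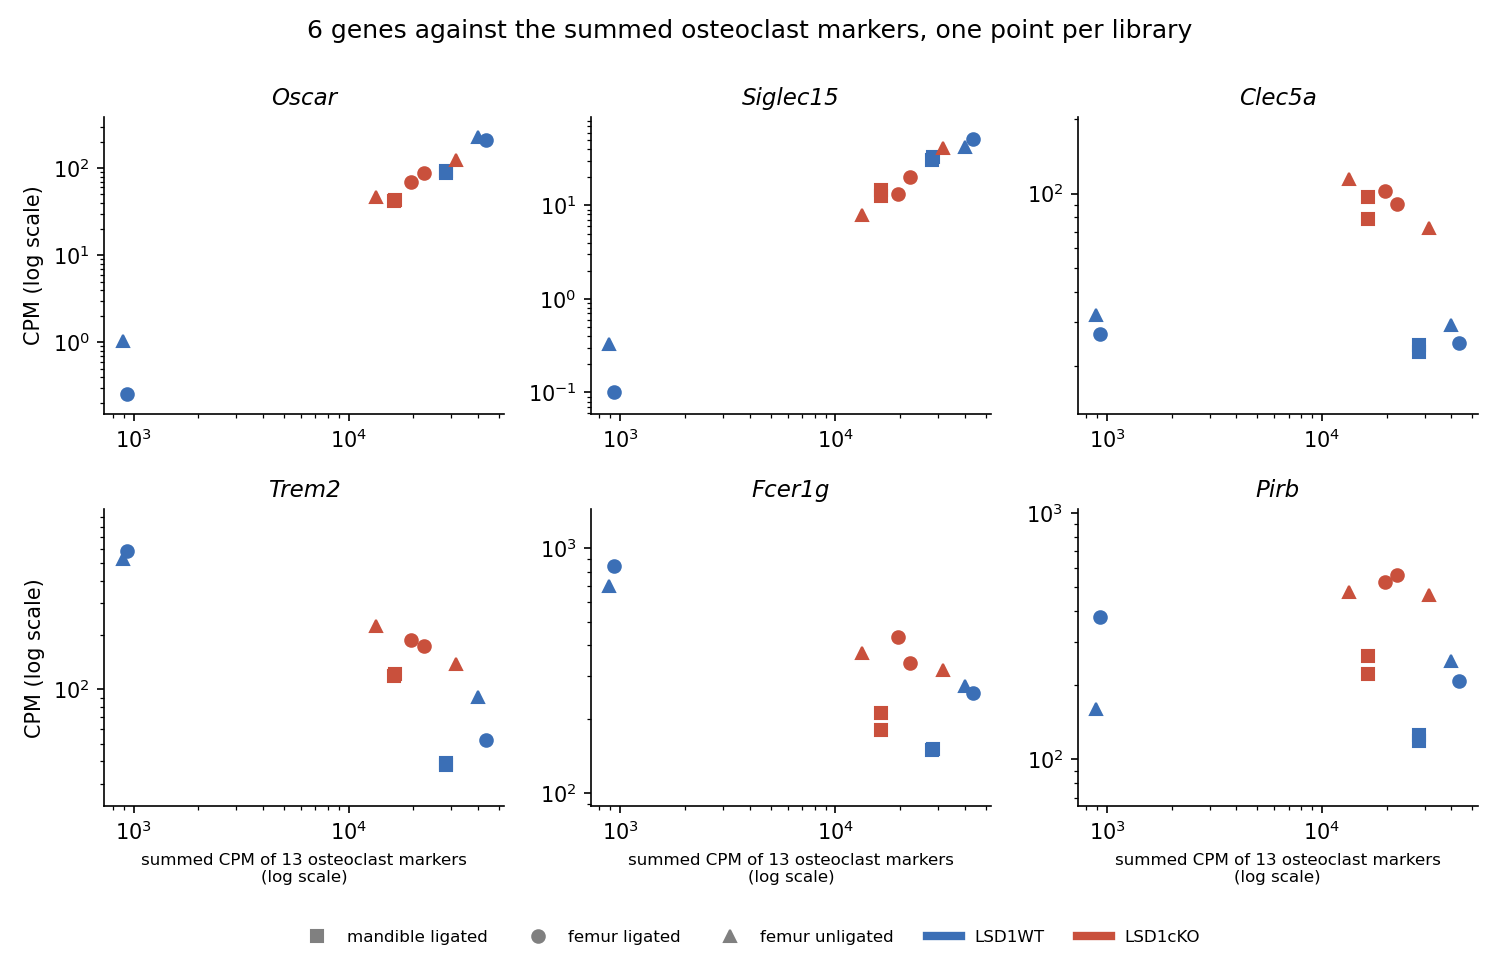
CPM of 6 genes (y axis) against the summed CPM of 13 osteoclast markers (x axis), both on log scales, with 1 point per library, shapes for cultures and colours for genotypes. The Siglec15 count of 0 is drawn at 0.1 CPM. Oscar and Siglec15 rise with the sum, Trem2 and Fcer1g fall, and the Clec5a points of LSD1cKO lie above those of LSD1WT. The LSD1cKO sums (13359 to 31518 CPM) lie within the range of the LSD1WT sums (888 to 43514 CPM).

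The next comparison was between skeletal sites in ligated mice. Both LSD1cKO mice were sampled at each site. Tyrobp was at 492 and 471 CPM in the mandible and 815 and 1015 CPM in the femur of mice 1 and 2. Fcer1g was at 180 and 211 CPM against 338 and 433 CPM, and Pirb at 223 and 262 CPM against 559 and 523 CPM. Oscar was at 42.5 and 42.6 CPM against 86.8 and 68.5 CPM, and Trem2 at 118 and 122 CPM against 174 and 187 CPM. These 5 genes were lower in the mandible in both mice, without overlap. In all, 6 of 9 genes were lower without overlap, Syk being the sixth, where 35.0% of genes were.

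edgeR without a mouse term called 0 of 9 genes between the sites in LSD1cKO. 2 genes, Tyrobp and Pirb, had an unadjusted p under 0.05, against 6.81% of genes lower at that level, and DESeq2 called Pirb (3.05% of genes called lower). With the mouse as a block, 5 of 9 were called lower in the mandible, where 18.4% of all genes were. Their log2 differences were -1.16 ± 0.18 for Pirb (adjusted p = 8.25e-06), -0.97 ± 0.18 for Fcer1g (9.05e-05), -0.92 ± 0.20 for Tyrobp (5e-04), -0.86 ± 0.16 for Oscar (0.000104) and -0.58 ± 0.17 for Trem2 (0.00676). Clec5a differed by -0.14 ± 0.15, Syk by -0.36 ± 0.19, Siglec15 by -0.28 ± 0.18 and Plcg2 by 0.05 ± 0.17, and none of these 4 passed. limma voom, in which the mouse was a random effect, called none of the 9. With the 4 LSD1cKO libraries fitted alone and no mouse term, edgeR called the 5 genes of the mouse block (20.8% of all genes called lower). In the mouse block, too, the spread comes from these 4 libraries only. Its adjusted p values rest on them, and the fit of these libraries alone is not separate evidence. The summed macrophage markers were also lower in the mandible (2884 to 3627 CPM) than in ligated LSD1cKO femur (10709 and 11001 CPM). So were the sums of dendritic cell markers (70.3 to 96.3 against 292 to 341 CPM), neutrophil markers (151 to 184 against 328 to 369 CPM) and B cell markers (10.4 to 12.4 against 48.8 to 49.4 CPM). Their part was not tested.

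**Figure D4:**
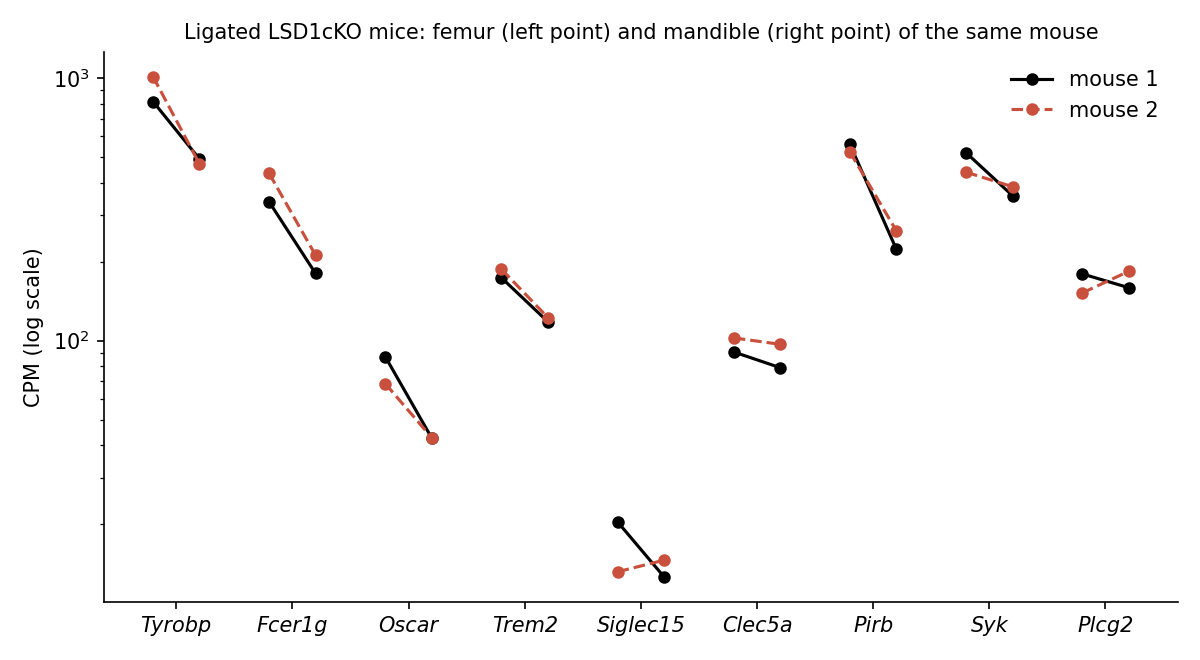
CPM (log scale) of the 9 genes in ligated LSD1cKO mice, with the femur library as the left and the mandible library as the right point and a line joining the libraries of 1 mouse. The lines fall for Tyrobp, Fcer1g, Oscar, Trem2, Clec5a, Pirb and Syk in both mice, and for Siglec15 and Plcg2 they do not fall in both.

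In LSD1WT 8 of 9 genes also had a lower mean in the mandible, and 6 did not overlap (31.5% of genes lower without overlap). edgeR called 0 of 9, with 4 at an unadjusted p under 0.05 (Trem2, Tyrobp, Fcer1g and Pirb; 14.7% of genes lower), and DESeq2 called Trem2, Fcer1g and Pirb (6.92% of genes called lower). Trem2 differed by -3.04 ± 1.07 with all libraries and by -0.40 ± 0.26 without the femur LSD1WT libraries numbered 2. Fcer1g differed by -1.87 ± 0.58 and by -0.73 ± 0.21, respectively. The macrophage marker sum was 3374 to 3425 CPM in the mandible and 6790 and 49584 CPM in ligated LSD1WT femur, and sums of dendritic cell markers (53.3 to 53.8 against 89.5 to 374 CPM) and B cell markers (9.06 to 9.22 against 13.8 to 229 CPM) were also lower, while neutrophil marker sums overlapped. Their part was not tested. Oscar differed by -0.23 ± 2.09. Only 1 LSD1WT mouse gave both sites. With the mouse as a block Oscar came out at -1.25 ± 0.23 (adjusted p = 0.000496, with 5.24% of genes called lower), but this difference is that of 1 mouse. Its error takes the spread from the LSD1cKO mice sampled at both sites and holds none of the spread between LSD1WT mice.

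Ligated and unligated femur were compared within each genotype. edgeR called 0 of 9 genes in LSD1WT and 0 of 9 in LSD1cKO, none had an unadjusted p under 0.05 (0.765% and 0.959% of all genes), and DESeq2 and limma voom called none. The differences in LSD1cKO were between -0.54 ± 2.05 for Siglec15 and 0.35 ± 0.31 for Tyrobp on the log2 scale. Tyrobp and Pirb were higher without overlap in ligated LSD1cKO femur, as were 14.0% of genes. In LSD1WT Clec5a was lower without overlap after ligature (-0.25 ± 0.24), as were 3.93% of genes.

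Other receptors that pair with DAP12 or FcRγ, with related genes such as the hemITAM lectin Clec7a and the adaptor Hcst (DAP10), were counted as a list of 32. Of these 28 were found and 27 tested. Over the 3 cultures 10 of 27 were called higher in LSD1cKO and 0 lower, against 3.00% and 0.532% of all genes, and their median log2 difference was 1.03. The 3 Sirpb1 genes (SIRPβ1, a DAP12 partner) rose most, by 3.42 ± 0.21 for Sirpb1c (adjusted p = 3.56e-05), 3.21 ± 0.23 for Sirpb1a (0.000106) and 2.97 ± 0.35 for Sirpb1b (0.00214). Sirpb1c was between 1.26 and 7.65 CPM in LSD1WT and between 13.1 and 70.3 CPM in LSD1cKO, without overlap. The activating paired receptors that signal through FcRγ, Lilra6, Pira12 and Pira1, rose by 2.96 ± 0.35 (0.00214), 2.91 ± 0.40 (0.00434) and 1.81 ± 0.26 (0.00498). Pira13, Pira2 and the DAP12 partners Pilrb1 and Pilrb2 made up the 10. The Sirpb1 genes, and the Pira genes with Lilra6 and Pirb, are families of near-identical genes, so the level of a single member is uncertain. All 10 called genes belong to the Sirpb1, Pira with Lilra6, and Pilrb families. They are therefore not 10 separate results to set against the share of all genes. Leaving out 1 library at a time gave 7 to 14 called. Hcst, which lies next to Tyrobp, differed by -0.13 ± 0.19 and did not pass.

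**Figure D5:**
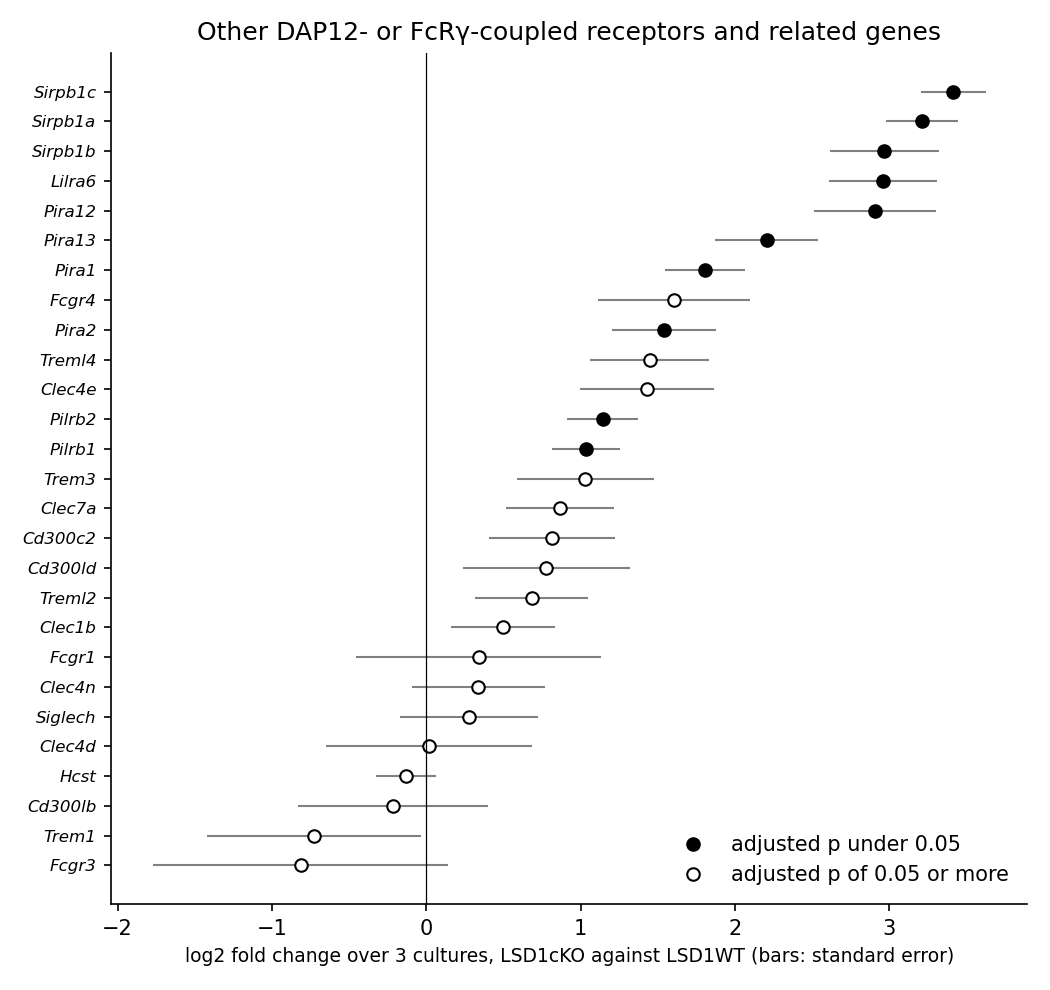
Log2 fold change of LSD1cKO against LSD1WT over the 3 cultures (x axis, bars are standard errors) for the 27 tested genes of this list. Filled points passed an adjusted p of 0.05. The 10 filled points all lie to the right of 0, from 1.03 for Pilrb1 to 3.42 for Sirpb1c.

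Of 24 genes with inhibitory motifs or encoding their phosphatases, 1 was called higher and 0 lower. Over all genes 3.00% were called higher and 0.532% lower, so this count is near that share. The gene called was Pilra (0.60 ± 0.13; adjusted p = 0.0283), which is the inhibitory partner of the Pilrb genes. Sirpa, Ptpn6 (SHP-1) and Inpp5d (SHIP1) differed by -0.06 ± 0.17, 0.20 ± 0.14 and -0.34 ± 0.23, and none passed. Among 31 kinases, scaffolds and lipases that act below the ITAM, 3 were called higher and 1 lower, against the same shares of all genes. The count of 4 fell to 2 without femur ligated LSD1cKO replicate 1 or 2 or mandible LSD1WT replicate 3, and it was 6 without either femur LSD1WT library numbered 2. The inhibitory count of 1 fell to 0 without femur ligated LSD1cKO replicate 1 or 2 or mandible LSD1cKO replicate 2. Blnk, the scaffold that joins SYK to PLCγ2 in osteoclasts and B cells, was higher by 1.03 ± 0.14 (adjusted p = 0.00426). It was between 29.1 and 74.1 CPM in LSD1WT and between 57.3 and 136 CPM in LSD1cKO, so the genotypes overlapped. B cell markers summed to 9.06 to 229 CPM in LSD1WT and 10.4 to 49.4 CPM in LSD1cKO over 10 genes, and their part was not tested. The adaptor Grap2 rose by 1.41 ± 0.20 (0.00511) and the kinase Prkcd by 0.50 ± 0.11 (0.0352). Plcg1, the relative of Plcg2, fell by 0.72 ± 0.13 on the log2 scale (0.014). Btk, Tec, Lcp2, Vav3 and Src did not pass, with adjusted p between 0.0862 and 0.966.

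Of 25 tested genes of the calcium, calcineurin and NFAT steps, edgeR called 0 over the 3 cultures, 5 had an unadjusted p under 0.05 (2 higher and 3 lower, against 8.31% and 7.76% of all genes), and DESeq2 called 1 (8.09% of all genes). Nfatc1, the end point of the pathway, had 995 CPM in both libraries of mandible LSD1WT, and mandible LSD1cKO had 684 and 624 CPM. In the femur LSD1WT libraries numbered 2 it was at 102 and 94.2 CPM, and in those numbered 1 at 998 and 810 CPM. The femur LSD1cKO values were 489 and 441 CPM (ligated) and 759 and 349 CPM (unligated). Nfatc1 differed by -0.18 ± 0.57 over the 3 cultures (adjusted p = 0.92) and by -0.69 ± 0.19 without the libraries numbered 2. Those libraries were singled out by their low osteoclast transcripts, and Nfatc1 was low in them as well. The Nfatc1 difference without these libraries is therefore partly set by that choice, and its test cannot decide whether the genotypes differ. Across femur LSD1WT the sum of the other coupled receptors also spread, at 441 and 5216 CPM (ligated) and 655 and 2236 CPM (unligated). The list counts that follow are under the same limit, since the fit leaves out these libraries. Without them 23 of the other coupled receptors were called higher and 0 lower, together with 10 higher and 2 lower of the inhibitory list, 10 higher and 5 lower of the kinase list and 5 higher and 3 lower of the calcium list. These counts stand against 14.4% of all genes called higher and 9.75% lower in that fit.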

How the data were processed

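PolyA RNA was sequenced from 12 preosteoclast cultures. Per the submitters' processing notes the tools were FastQC, HISAT2 2.1.0, featureCounts and edgeR, with genome build GRCm39; the strand setting is not given in the sources used here. The deposited values are raw read counts per gene, and the authors applied no normalization or filter to them. All 12 columns were used. Genes were filtered with filterByExpr and scaled by TMM in edgeR 4.0.16 (R 4.3.3), and a quasi-likelihood model with 1 term per group (or culture plus genotype, for the comparison over 3 cultures) was fitted to all 12 libraries. P values were adjusted over all 15425 genes (Benjamini-Hochberg), with 0.05 as the threshold. They measure the spread between libraries, of which 2 per group were available; for correlations, log2 CPM used a prior count of 2. DESeq2 1.42.0 and limma 3.58.1 were alternatives. The model was checked on simulated counts. Transcript lengths came from GENCODE (GRCm38), matched by gene identifier. In LSD1cKO the libraries numbered alike came from 1 mouse at both sites by the labels, and the differences between mice correlated at 0.026 between the sites. The genes and lists were chosen with earlier results of these data known. Genes named besides the 9 are the list genes that passed the threshold (up to 6 per list and comparison, smallest adjusted p first), set genes of the pathway, and the 3 genes of highest Pearson correlation for each member (1 of them is not reported here). Kdm1a checked the labels.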

Additional observations from a re-analysis of the deposited data

Results flagged for a closer look

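Among the 9 genes, 1 value stood far from its group. Syk in femur unligated LSD1WT replicate 2 was at 264 CPM, below the other 5 LSD1WT libraries (423 to 508 CPM), and its gap to the nearest of them was 0.722 of the group's range on the log2 scale, above Dixon's critical value for 6 samples. This check marks about 1 in 20 groups by chance. It was run on each of the 9 genes in each genotype, so a single mark can be expected by chance. The same library was among the 2 that nearly lacked osteoclast transcripts, and the part of this in the Syk value was not tested.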

How the results depend on the processing

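Clec5a and Pirb kept their direction and their call over the 3 cultures under all 23 alternatives, with log2 differences of 1.75 to 1.94 and 0.97 to 1.20 and adjusted p of up to 0.000845 and 0.0327. Elsewhere the calls moved as follows.

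The number of the 9 genes called in the mandible genotype comparison was 1 with DESeq2, 1 with no filter, 3 without both of these libraries and 7 with the compared groups alone. In ligated femur it was 1 with DESeq2, RLE scaling, either other filter or the library with conflicting labels taken as femur. In unligated femur it was 1 with DESeq2 or no filter. Leaving out both femur LSD1WT libraries numbered 2 left 1 LSD1WT library in each femur culture, so no femur count is given. Over the 3 cultures it was 6 without both. Between sites in LSD1cKO it was 1 with DESeq2, 3 without both libraries, 5 with the compared groups alone and 5 with the replicate block by mouse; in LSD1WT it was 3 with DESeq2, 2 with no filter and 1 with the block by mouse. Leaving out 1 library at a time gave 0 to 1 called in the mandible, 0 to 1 in ligated femur, 0 to 1 between sites in LSD1cKO and 0 to 4 in LSD1WT. Leaving out both libraries also raised the calls on the inhibitory list from 1 to 12, on the kinase list from 4 to 15 and on the calcium list from 0 to 8, as alternatives chosen after seeing the data.

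These genes changed direction, none of them called in the fit of the report. Without both femur LSD1WT libraries numbered 2, the genotype difference was 1.53 for Trem2, 0.47 for Fcer1g and -0.049 for Syk over the 3 cultures, 1.88 for Trem2 and 0.67 for Fcer1g in ligated femur, and 1.02 for Trem2, 0.35 for Fcer1g and -0.79 for Siglec15 in unligated femur; the site difference in LSD1WT was -0.67 for Siglec15 and 0.007 for Plcg2. With limma voom the genotype difference was 0.29 for Trem2, 1.45 for Siglec15 and 1.63 for Oscar over the 3 cultures, 0.065 for Trem2, 2.95 for Siglec15 and 2.62 for Oscar in ligated femur, and 2.24 for Oscar and 0.005 for Tyrobp in unligated femur, and the site difference of Oscar in LSD1WT was 3.53. Tyrobp in unligated femur was 0.035 with the mean count filter, 0.061 with no filter, 0.028 with the mandible LSD1WT libraries summed, 0.028 with the conflicting library as femur and 0.047 with upper-quartile scaling, and Trem2 over the 3 cultures was 0.019, 0.034 and 0.044 with the filters and that scaling.

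The genotypes share only replicate numbers, not mice. With the replicate number as a block, Oscar was 1.07 over the 3 cultures, 1.38 in ligated femur, 0.93 in unligated femur and 0.93 in the mandible; Siglec15 was 1.09 over the 3 cultures, 1.22 in ligated femur, 0.98 in the mandible and 0.045 between sites in LSD1cKO; Trem2 was 0.069 over the 3 cultures and Syk 0.016 in the mandible. The block changed no call of the 9 genes. With the mouse as a block the site difference of Siglec15 in LSD1WT was -0.64. In femur LSD1WT the libraries numbered 1 and 2 differed alike in ligated and unligated mice (r = 0.78 across genes), although these are different mice.

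Leaving out 1 library at a time gave these ranges over the 3 cultures: Fcer1g -0.29 to 0.10, Oscar -0.92 to 0.03, Siglec15 -1.01 to 0.26, Syk -0.031 to 0.19 and Trem2 -0.25 to 0.78. In ligated femur they were -1.04 to 0.58 for Fcer1g, -1.44 to 8.30 for Oscar, -1.63 to 11.8 for Siglec15, -0.087 to 0.23 for Syk, -1.61 to 1.79 for Trem2 and -0.091 to 0.54 for Tyrobp. In unligated femur they were -0.94 to 0.35 for Fcer1g, -1.38 to 6.44 for Oscar, -0.33 to 0.56 for Plcg2, -1.43 to 6.25 for Siglec15, -1.46 to 1.02 for Trem2 and -0.22 to 0.33 for Tyrobp. Between sites they were -1.23 to 8.47 for Oscar, -0.71 to 12.7 for Siglec15 and -0.24 to 0.03 for Syk in LSD1WT, and -0.08 to 0.15 for Plcg2 and -0.59 to 0.023 for Siglec15 in LSD1cKO. A lone library left in a group was assumed to vary like the others. Causes were not tested. A depth of at least 21375805 counts leaves counting error small for all genes but Oscar and Siglec15 in the libraries at or near 0.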
